A study of Mus musculus with 12 samples.

Results

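The third dissected segment of the mouse epididymis was compared between ducts cut off from the testis and ducts that were not tied. The members were chosen by the column labels of the deposited gene counts: ligated segment 3 (L3) and control segment 3 (C3), 4 of the 12 libraries of the series, 2 of them ligated. All mice were wild type. In the ligated group a suture had been tied around the efferent ducts, just before they enter the caput; the controls had no ligation. Each library was a pool from 2 mice, made from 500 ng of total RNA after polyA selection with a strand-marking kit. No source used here gives the age of the mice, the time after ligation, or whether the segments or the ligated and control tissue came from the same mice. The libraries came in 2 sets, numbered 3017 and 3097, each with 1 library of every group. The sets were treated as batches, and the sample labels and column names do not say what separates them. With only 2 libraries a side, p-values rest on the spread between pools, estimated in 1 fit over all 12 libraries and not over segment 3 alone.

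The efferent ducts carry sperm and testicular fluid from the testis into the epididymis, so tying them stops both. Sperm leave the testis with compacted chromatin and are transcriptionally silent, but they hold transcripts left from spermatid development, such as those for protamines, tail proteins and sperm-specific glycolytic enzymes. The epithelium of the proximal epididymis depends in part on factors in the luminal fluid, and in the initial segment these act through the ERK pathway and its ETV transcription factors. Genes were therefore read in 3 sets: sperm transcripts, epithelial genes and immune genes.

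C3 held 35190553 and 39282539 counts and L3 37945817 and 39276097, within the series' range of 30485275 to 42313728. Gpx5, a secreted caput glutathione peroxidase, was the most abundant transcript in all 12 libraries, and in segment 3 it took between 3.56% and 5.55% of counts. The 2 libraries of each group differed by far more than sampling noise, their chi-square divided by its degrees of freedom being 80.1 for C3 and 44.83 for L3, so each library was counted as its own replicate.

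In segment 3 ligation was followed mainly by the loss of low-abundance transcripts. Of 19213 genes tested, 271 were called lower (1.41%) and 60 higher (0.312%) by edgeR's quasi-likelihood test at a Benjamini-Hochberg adjusted p under 0.05, 1.72% in all. Falls were large: 246 of the 271 were at least 2-fold (1.28% of genes tested) and 167 at least 16-fold lower, and 70 had no counts in either L3 library. Only 8 of the 60 rises reached 2-fold (0.0416% of genes tested), and the median rise was 0.571 on the log2 scale. All 331 genes moved the same way in both sets with no overlap between groups, which was also true of 19.5% of all genes tested in the higher and 23.8% in the lower direction. Most fallen genes were rare in control tissue: 200 of 271 had 5 CPM (the usual unit of counts scaled to library size, here with TMM factors) or fewer in C3, and 10 had 100 CPM or more. The number of calls rested on single libraries: it was 82 without C3 of set 3017, 70 without L3 of set 3017, 132 without L3 of set 3097 and 395 without C3 of set 3097, and 58 calls (55 lower, 3 higher) stood whichever library was left out. A fit of the 4 segment 3 libraries alone called 211 genes, which held 173 of the 331: 166 of the 271 lower and 7 of the 60 higher. DESeq2 called 649 genes (3.38%), 464 lower (2.42%) and 185 higher (0.963%).

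**Figure D1:**
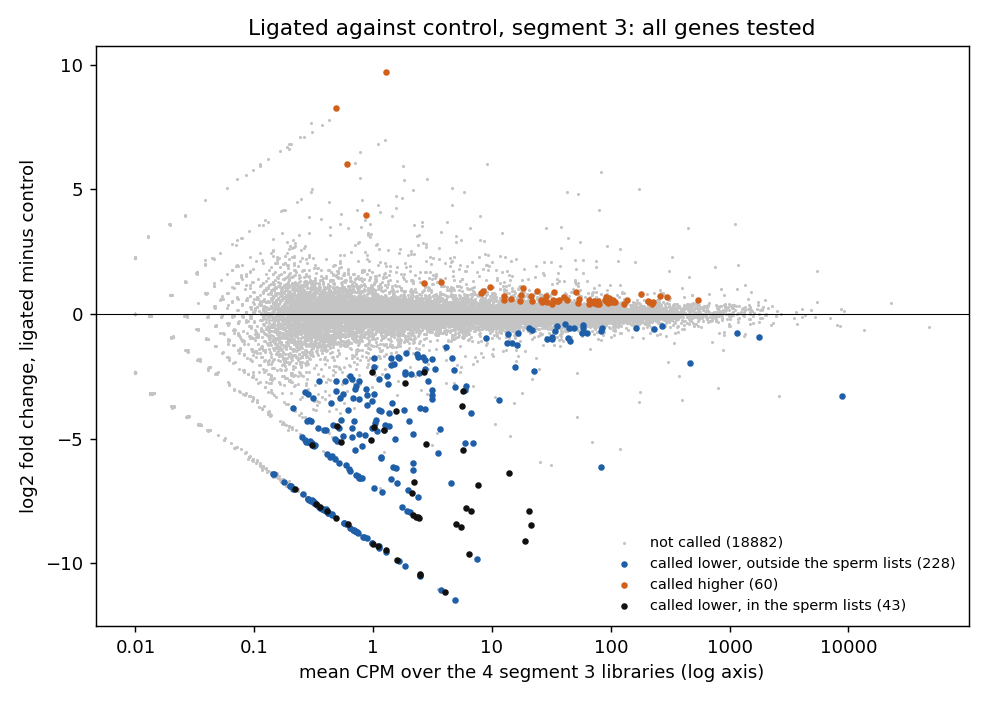
Log2 fold change (ligated minus control) of each of 19213 genes against its mean CPM over the 4 segment 3 libraries (log axis). The 43 sperm-list genes and the 228 other genes called lower lie mostly in a band at low CPM, but 10 of these 271 had 100 CPM or more in C3. Folds in the band go down to the point where L3 has no counts. There the fitted value depends on a small added count and is no measure of size. The 60 genes called higher lie close to 0 except for 4 rare transcripts.

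A regulatory sequence known from spermatid genes was searched for near the start sites of the fallen genes. The cAMP response element, bound by the spermatid activator CREM, is written TGACGTCA, and spermatid genes often hold variants of it, so TGACGTCA and TGACNTCA (N any base) were searched on both strands in the 250 bases before each start site in RefSeq's promoter windows (GRCm38.p6). The second motif includes the first. It was present in 22.3% of 242 windows of called-lower genes (199 of the 271 genes had a window), in 29.7% of 64 windows of tested sperm-list genes, in 7.41% of 54 windows of called-higher genes, in 6.29% of 16410 windows of all tested genes and in 7.49% of all 32851 windows. The exact palindrome TGACGTCA was present in 2.07%, 1.56%, 0%, 2.31% and 1.55% of the same windows. These shares are a description; windows of 1 gene can overlap, and no binding was measured. The 120 bases before the start site are shown, 5′ to 3′, for 5 fallen genes with a match (capitals: the match; in Tnp1, the first in Gapdhs and the second in Gsg1 it is on the other strand) and for 2 without, chosen after the search to show both cases.
Prm1 (GRCm38.p6, chr16:10796824-10796943, minus strand): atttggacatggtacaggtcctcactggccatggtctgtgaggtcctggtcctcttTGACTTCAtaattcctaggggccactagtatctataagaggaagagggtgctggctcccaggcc
Tnp1 (GRCm38.p6, chr1:73015900-73016019, minus strand): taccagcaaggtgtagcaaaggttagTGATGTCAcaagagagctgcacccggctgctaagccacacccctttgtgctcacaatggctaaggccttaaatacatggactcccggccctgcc
Gapdhs (GRCm38.p6, chr7:30743682-30743801, minus strand): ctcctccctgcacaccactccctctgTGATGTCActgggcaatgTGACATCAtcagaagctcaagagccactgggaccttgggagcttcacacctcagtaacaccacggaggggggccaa
Gsg1 (GRCm38.p6, chr6:135254337-135254456, minus strand): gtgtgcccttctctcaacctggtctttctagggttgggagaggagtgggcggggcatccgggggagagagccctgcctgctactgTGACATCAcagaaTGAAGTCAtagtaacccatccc
Iqcf3 (GRCm38.p6, chr9:106561627-106561746, minus strand): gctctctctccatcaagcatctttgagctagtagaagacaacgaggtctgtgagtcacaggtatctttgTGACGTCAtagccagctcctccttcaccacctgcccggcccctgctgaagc
Prm2 (GRCm38.p6, chr16:10792106-10792225, minus strand): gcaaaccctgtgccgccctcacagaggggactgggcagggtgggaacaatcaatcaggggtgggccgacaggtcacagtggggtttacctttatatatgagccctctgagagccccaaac
Tnp2 (GRCm38.p6, chr16:10788656-10788775, minus strand): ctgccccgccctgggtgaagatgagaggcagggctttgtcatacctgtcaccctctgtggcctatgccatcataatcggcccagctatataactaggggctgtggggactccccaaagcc

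Chromatin packaging transcripts of sperm were nearly gone after ligation. All 7 tested members (of 8 listed) were called lower, and the list's summed level was 95.85 and 54.16 CPM in C3 against 0.3929 and 0.02529 CPM in L3. Prm2, a protamine that replaces histones in the sperm nucleus, was at 55.9 and 29.4 CPM in the control libraries of sets 3017 and 3097 and at 0.236 and 0 CPM in the ligated ones. Prm1, the other protamine (chr16:10796326-10805839), stood at 14.6 and 7.40 CPM in C3 and at 0.0524 and 0 CPM in L3. With 2 counts left in L3, the control to ligated ratio of Prm1 was 423, with a 95% counting interval of 117 to 3496. Tnp1, a transition protein that precedes the protamines, was at 6.19 and 3.45 CPM in C3 and had 1 count in L3. Control levels were higher in set 3017 than in 3097 for each of these, while the 2 ligated libraries were both near 0.

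Most tail transcripts fell with them. Of 28 tested (of 32 listed), 18 were called lower and none higher, with a summed level of 283.1 and 157.0 CPM in C3 and 53.46 and 31.05 CPM in L3. Odf1, an outer dense fibre protein of the tail (chr15:38219203-38226735), was at 54.8 and 27.2 CPM in C3 and 0.157 and 0.177 CPM in L3, a log2 fold change of −7.88 ± 0.46 (SE; edgeR adjusted p = 0.000279). Smcp, a protein of the mitochondrial capsule of the midpiece, was at 53.5 and 22.6 CPM against 0.105 and 0.0253 CPM (log2 −9.09 ± 0.71, edgeR adjusted p = 0.00218, or 0.0623 without L3 of set 3017). Akap4, the main fibrous sheath scaffold, was at 15.6 and 10.1 CPM in C3 and had 1 count in L3, a ratio of 990 (95% counting interval 177 to 39131). Spata18 had no counts in L3 and 11.2 and 4.79 CPM in C3, so it was at least 104-fold lower (3 counts per library taken as the floor). Some listed tail genes did not follow: Ropn1l was at 7.92 and 7.87 CPM in C3 and 7.28 and 6.07 in L3, and Spata3 at 21.9 and 21.2 against 38.5 and 19.0 CPM. For these 2 the 95% intervals of the log2 fold change were −0.66 to 0.17 and −0.23 to 0.95.

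A smaller number of acrosome and fertilization transcripts was called. Of 18 tested (of 28 listed), 6 were called lower and none higher. Crisp2, an acrosomal secretory protein, was at 17.9 and 12.6 CPM in C3 and 0.105 and 0.152 CPM in L3 (log2 −6.86 ± 0.42, edgeR adjusted p = 0.000226). Adam3, needed for sperm binding to the egg, went from 3.58 and 2.21 CPM to 0.393 and 0.0253 CPM, and Adam5 from 3.61 and 2.84 to 0.550 and 0.405 CPM; without the control of set 3017 neither was called (edgeR adjusted p = 0.0763 and 0.0905), and Adam5 was called only when no library or the control of set 3097 was left out. Adam2 had 0.738 and 0.448 CPM in C3 and 0.0262 and 0 in L3 but was not called (edgeR adjusted p = 0.0601). Zpbp, at 4.06 and 2.98 CPM against 2.15 and 2.73, was not called either.

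Sperm metabolism and cytoplasm genes fell in 12 of 19 tested (of 24 listed), again with no rise. Gapdhs, the sperm form of the glycolytic enzyme GAPDH (chr7:30729775-30743681), was at 13.8 and 8.69 CPM in C3 and 0.183 and 0.303 CPM in L3, 46.3-fold lower by the means (log2 −5.46 ± 0.33, edgeR adjusted p = 0.000226). Pgk2, the sperm phosphoglycerate kinase, was at 12.2 and 7.85 CPM in C3 with 2 counts in L3, a ratio of 386 (106 to 3193). Pgk2 is an intronless copy of its somatic relative, so reads shared between them could be assigned either way. Ldhc, the sperm lactate dehydrogenase, stood at 7.07 and 3.84 CPM against 0.210 and 0.0759 CPM. Phf7 and Crem, listed here but not called, were at 15.9 and 17.0 against 16.9 and 14.7 CPM and at 7.89 and 8.56 against 9.95 and 8.98 CPM.

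Over the 4 sperm lists, 43 of 72 tested genes were called lower and none higher, beside 1.41% lower and 0.312% higher over all genes; 20 of the 43 stood whichever library was left out. Their median log2 fold change was −5.20, or −3.84 with genes at 0 set to their bound, against −0.0105 over all tested genes; 20 of the 92 listed genes were not tested because they were too low or not among the deposited genes. A gene could pass the count filter through control libraries alone, and 17 of the 72 had no counts in L3. Such genes can hardly be called higher, so the share called and the median partly follow from the filter. The summed level of the 4 lists was 536.7 and 321.7 CPM in C3 against 103.2 and 74.57 CPM in L3. In bulk tissue, fewer sperm in the lumen and less RNA per sperm cannot be told apart. Markers of meiotic germ cells gave 1 call in 10 tested, Sycp1, a synaptonemal complex protein, at 0.682 and 0.369 CPM against 0.0524 and 0 CPM; markers of testis somatic cells gave none in 6, also at an unadjusted p under 0.05 or by DESeq2.

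**Figure D2:**
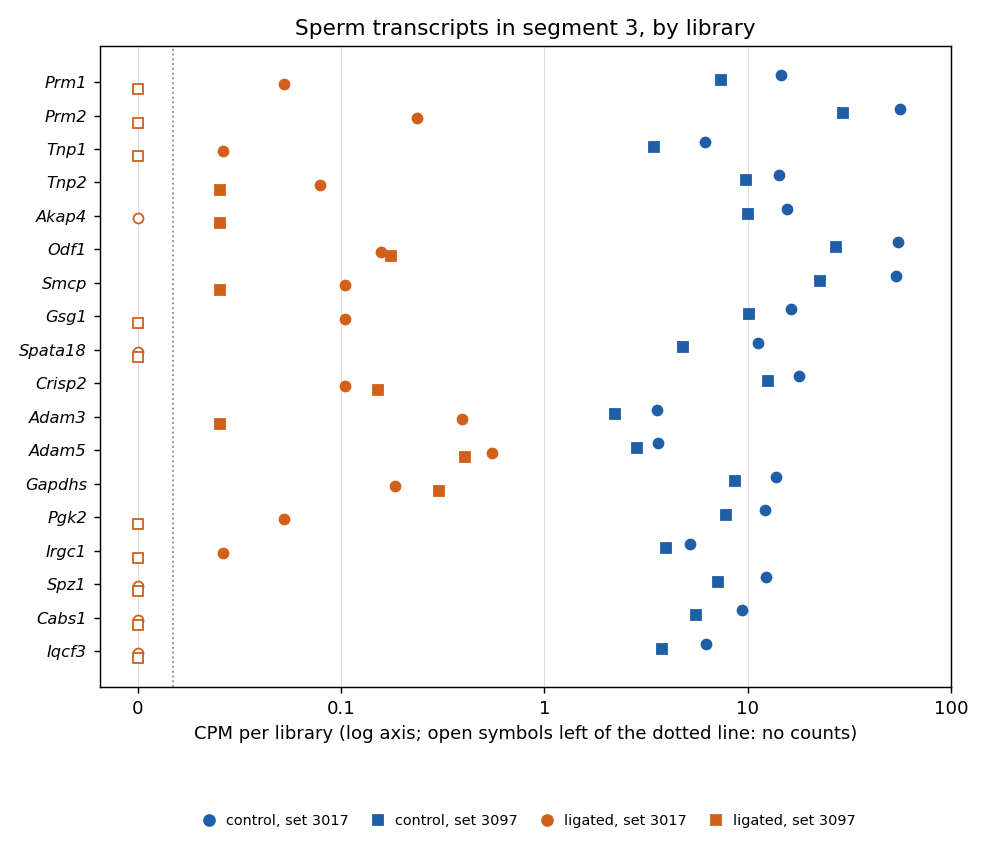
CPM of 18 fallen sperm and testis-type transcripts in each segment 3 library (log axis; circles, set 3017; squares, set 3097; blue, control; orange, ligated; open symbols, no counts). Every control value exceeds every ligated value of its gene, as in all 271 genes called lower and 23.8% of all genes tested. In each of the 18 the set 3017 control exceeds the set 3097 control.

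Outside the sperm lists, 228 further genes fell, 9 of them in other lists. Spz1, a transcription factor of the spermatogenic line, Cabs1, a calcium-binding protein of elongate spermatids, and Iqcf3 had no counts in L3. They were at 12.3 and 7.13, at 9.40 and 5.56, and at 6.25 and 3.76 CPM in C3, at least 126-fold, 96.8-fold and 64.8-fold lower. Among the 253 protein-coding genes called lower, 35 (13.8%) had a single exon in the GENCODE annotation, against 441 of 15194 (2.9%) tested and 3 of 54 called higher. Over all 271 genes, 250 were higher in the set 3017 control than in the set 3097 control, with a median ratio of 1.6 against 1 over all genes tested; the ligated libraries were both low.

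Ribosomal RNA moved with this loss. Gm42418, a locus that collects ribosomal RNA reads, was at 24688 and 7532 CPM in C3 and 1568 and 1561 CPM in L3 (log2 −3.30 ± 0.53, edgeR adjusted p = 0.0331), and ribosomal RNA took 2.76% and 0.958% of C3 counts against 0.299% and 0.309% of L3 counts. The mitochondrial ribosomal RNAs also fell: mt-Rnr2 from 2504 and 2087 to 1167 and 1286 CPM, and mt-Rnr1 from 336 and 289 to 234 and 217 CPM; both were called only with all libraries or without C3 of set 3097 (edgeR adjusted p otherwise 0.106 to 0.504). With the ribosomal RNA genes removed, 323 genes were called, 316 of them among the 331, and 42 of the 43 sperm calls stood. Its part in the other results was otherwise not tested.

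Among 328 tested epithelial genes 8 were called, all lower, beside 1.72% called over all genes. DESeq2 called 43, 37 lower and 6 higher (over all genes 3.38%, 2.42% and 0.963%). Rnase10, a secreted ribonuclease-family protein of the initial segment that sperm need to function (chr14:51007751-51010758), was at 259 and 66.5 CPM in C3 and 1.39 and 2.53 CPM in L3 (log2 −6.11 ± 0.93, edgeR adjusted p = 0.0408). Its call was lost without C3 of set 3017 (edgeR adjusted p = 0.170) or without L3 of set 3017 (0.335) or 3097 (0.101), and also with only the 4 segment 3 libraries (0.505), without those of segment 1 (0.141) and without a filter on low counts (0.0857). It was the only initial segment gene called of 21 tested, where 10 were lower at an unadjusted p under 0.05, as were 9.5% of all genes tested. Lcn8, a lipocalin secreted there, was at 94.6 and 102 CPM in C3 and 5.68 and 5.66 CPM in L3, yet its SE of 1.15 gave an edgeR adjusted p of 0.186 (DESeq2 0.00195). Lcn9, at 67.8 and 56.4 against 1.18 and 0.733 CPM, gave 0.0770, and Cst11, a cystatin, at 848 and 421 against 60.9 and 173 CPM, gave 0.164. The groups of these 3 genes do not overlap, which in the lower direction was true of 23.8% of all genes tested. Of the 21 initial segment genes, 10 did not overlap in that direction and 4 in the higher one (19.5% over all genes). The calls depended on the tool and on the libraries in the fit. With only the 4 segment 3 libraries, edgeR gave Lcn8 an adjusted p of 0.000116 and Cst11 one of 0.606.

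Of the 21 initial segment genes tested, 1 was higher at an unadjusted p under 0.05 (6.43% over all genes). DESeq2 called 7 lower (2.42% over all genes) and none higher. Not every gene of the initial segment was lower. Ros1, a receptor kinase that the initial segment requires, was at 228 and 252 CPM in C3 and 264 and 234 CPM in L3. Rnase9 was at 8.97 and 310 CPM against 3147 and 1010 CPM, with the 2 controls far apart (edgeR adjusted p = 0.550).

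The ERK pathway list, with the ETV factors and feedback phosphatases, gave no call in 20 tested; 5 were lower at an unadjusted p under 0.05, none higher, and DESeq2 called 5 lower. Over all genes these shares were 9.5% lower at an unadjusted p and 2.42% lower by DESeq2. Etv5, an ETV factor active downstream of ERK, was at 31.9 and 7.53 CPM against 1.47 and 1.85 CPM (log2 −3.33 ± 0.95, edgeR adjusted p = 0.194), with a control of set 3017 well above that of 3097. Dusp6, a phosphatase that turns ERK off, was at 14.1 and 6.87 against 5.003 and 4.32 CPM. Ccnd1, a cyclin under growth factor control, was at 89.3 and 95.6 against 48.9 and 56.9 CPM and was not called by edgeR (adjusted p = 0.141). It was called by DESeq2 (0.00628), and by edgeR without the libraries of segment 1 (0.0123) or with only those of segment 3 (0.0258).

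Of 25 proliferation genes, 5 were called lower and none higher, beside 1.41% lower over all genes. At an unadjusted p under 0.05, 20 were lower (9.5% over all genes), and DESeq2 called 12 lower (2.42%). Top2a, a topoisomerase of dividing cells, was at 7.27 and 8.66 CPM in C3 and 1.34 and 2.07 CPM in L3 (log2 −2.25 ± 0.39, edgeR adjusted p = 0.0322). Cenpf, a kinetochore protein, was at 5.03 and 4.21 against 0.314 and 0.379 CPM. Ccnb2, Cdk1 and Ube2c, which drive mitotic entry and exit, were the other calls. Top2a was not called with any single library left out (edgeR adjusted p from 0.0699 to 0.376), and Cenpf was called only without C3 of set 3097 (0.0461 to 0.379). Mki67, the usual marker of cycling cells, was at 7.95 and 8.56 against 1.07 and 1.42 CPM but was not called by edgeR (adjusted p = 0.0911; DESeq2 1.50e-07). Pcna and Mcm2, both of DNA replication, were not called: Pcna was at 51.1 and 61.7 against 56.1 and 61.4 CPM, and Mcm2 at 39.6 and 40.3 against 33.1 and 36.5 CPM. These transcripts are also made in germ cells, and which cells lost them was not tested.

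Calls on the secretory output depended on the tool. None of 41 caput secretory genes was called by edgeR. At an unadjusted p under 0.05, 8 were lower (9.5% over all genes) and none higher, and DESeq2 called 4 lower (2.42%). The list's median log2 fold change was 0.00784, and 14 genes did not overlap in each direction (over all genes, 23.8% lower and 19.5% higher). Gpx5 was at 53559 and 57422 CPM in C3 and 35365 and 43368 CPM in L3 (log2 −0.50, 95% interval −0.91 to −0.10, edgeR adjusted p = 0.223, DESeq2 0.0451). Adam7, a secreted membrane metalloprotease relative, was at 17246 and 16046 against 9874 and 11308 CPM (edgeR adjusted p = 0.119, DESeq2 0.0036). Clu, a secreted chaperone, was at 16847 and 22583 against 28307 and 24015 CPM. Lcn5, a retinoid-binding lipocalin, was at 1218 and 3849 against 10901 and 5958 CPM, an interval of −0.61 to 4.10 on the log2 scale; both ligated values were higher, but libraries of 1 group differed several-fold.

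The androgen response list gave 2 calls of 17 tested, both lower, beside 1.41% lower over all genes. Sord, a polyol dehydrogenase, was at 67.1 and 48.6 against 28.7 and 30.4 CPM (log2 −0.96 ± 0.13, edgeR adjusted p = 0.00679), and Ndrg1, a stress and differentiation gene, at 218 and 173 against 128 and 134 CPM. Without L3 of set 3017 neither was called (edgeR adjusted p = 0.139 and 0.506), nor was Sord with only the 4 segment 3 libraries (0.0767), nor Ndrg1 without C3 of set 3017 (0.506) or L3 of set 3097 (0.122). Among abundant epithelial-level genes outside the lists, the retinal dehydrogenases Aldh1a1 and Aldh1a7 fell: Aldh1a7 from 952 and 508 to 173 and 207 CPM, and Aldh1a1 from 1506 and 1399 to 851 and 877 CPM. Both calls were lost without either L3 library (edgeR adjusted p from 0.0957 to 0.458), and that of Aldh1a1 also without C3 of set 3017 (0.162). These 2 are close copies on chromosome 19, so the split of reads between them is uncertain.

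Cell type markers of the epithelium gave no call. Among 14 clear and narrow cell genes, 4 were higher at an unadjusted p under 0.05 (6.43% over all genes) and DESeq2 called 3 higher (0.963% over all genes). Foxi1, the factor that specifies these acid-secreting cells, was at 131 and 154 CPM in C3 and 133 and 138 CPM in L3. Among 13 basal cell genes, 3 were higher and 2 lower at an unadjusted p under 0.05 (over all genes, 6.43% and 9.5%) and DESeq2 called 3 (3.38% over all genes). Krt5, the basal keratin, was at 78.3 and 107 against 99.8 and 117 CPM. Motile cilia genes gave no edgeR call in 23, with a median log2 fold change of −0.632. At an unadjusted p under 0.05, 6 were lower (9.5% over all genes) and none higher, and DESeq2 called 2 lower (2.42%). Groups did not overlap for 15 in the lower direction and 1 in the higher (over all genes, 23.8% and 19.5%). The other epithelial lists gave no edgeR call either. For comparison, 6.43% of all genes were higher and 9.5% lower at an unadjusted p under 0.05, and DESeq2 called 0.963% higher and 2.42% lower. At an unadjusted p under 0.05, 3 of 31 beta-defensins, small antimicrobial peptides, were higher and 1 lower, with 1 called each way by DESeq2. Of 15 immediate early genes 1 was higher and 2 lower by that measure, and DESeq2 called 2 lower; of 19 general epithelial genes 3 were higher and 1 lower, and DESeq2 called 1 higher. Fluid and ion transport (20 genes) and cholesterol synthesis (22) each had 2 lower, the unfolded protein response (23) 1 higher and 2 lower, and p53 and apoptosis (24) 1 lower, with no DESeq2 call in these 4 lists.

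**Figure D3:**
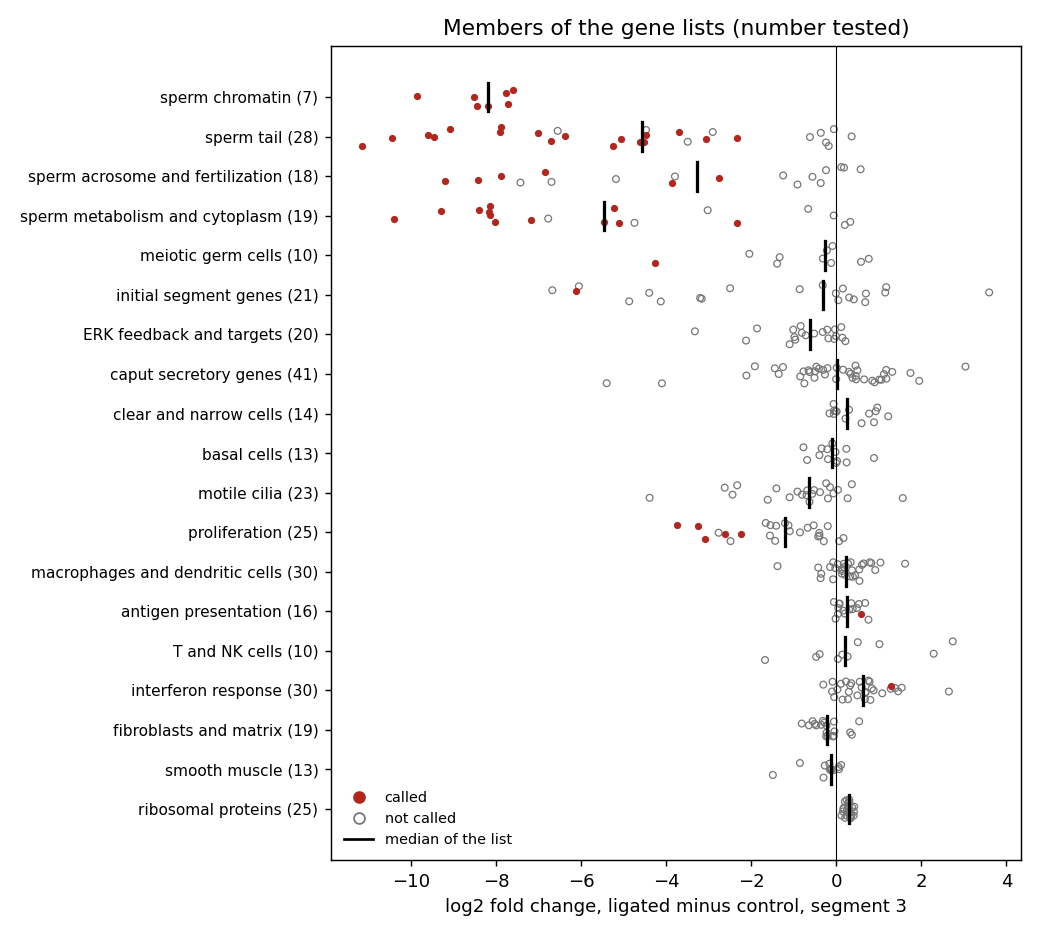
Log2 fold change (ligated minus control, segment 3) of every tested member of 19 gene lists; red, called by edgeR; open, not called; bar, list median. Called members sit in the 4 sperm lists, in proliferation, and singly in the meiotic, initial segment, antigen presentation and interferon lists.

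Immune genes gave 2 calls of 120 tested, both higher, beside 0.312% higher over all genes. DESeq2 called 6 higher (0.963% over all genes). Isg15, a ubiquitin-like protein induced by interferon (chr4:156199424-156200818), was at 2.16 and 2.13 CPM in C3 and 6.52 and 4.22 CPM in L3 (log2 1.29 ± 0.22, edgeR adjusted p = 0.0194). C3 was its lowest group: Isg15 was at 6.11 and 6.35 CPM in C1 and 8.19 and 5.28 CPM in C2. Its log2 fold change was 0.52 in segment 1 and −0.46 in segment 2. H2-D1, a class I antigen-presenting molecule, was at 378 and 491 against 649 and 640 CPM (log2 0.58 ± 0.12, edgeR adjusted p = 0.0408), and its close relative H2-K1, which can share reads, at 310 and 407 against 700 and 512 CPM (edgeR adjusted p = 0.139). Both calls were lost without C3 of set 3017 (edgeR adjusted p = 0.264 for Isg15 and 0.420 for H2-D1), without L3 of set 3017 (0.218 and 0.389) without L3 of set 3097 (0.0528 and 0.0927) and with only the 4 segment 3 libraries (0.103 and 0.255).

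The interferon response list had 1 call of 30, with 17 higher and none lower at an unadjusted p under 0.05 (6.43% higher over all genes). Its median log2 fold change was 0.634, and DESeq2 called 4 higher (0.963% over all genes). Usp18, which damps interferon signalling, was at 2.50 and 2.87 against 6.02 and 5.44 CPM, and Ifit1, an antiviral RNA-binding protein, at 1.48 and 1.13 against 3.61 and 3.46 CPM. In segment 2 the median of the same list was −0.184 and in segment 1 it was 0.772.

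Leukocyte markers gave no call. None of 30 macrophage and dendritic cell genes was called by edgeR or DESeq2, with 7 higher and 2 lower at an unadjusted p under 0.05 (over all genes, 6.43% and 9.5%); Cd68, a lysosomal protein of macrophages, was at 52.6 and 56.7 against 47.9 and 76.7 CPM, and Adgre1, the F4/80 antigen, at 3.98 and 5.19 against 3.82 and 5.59 CPM. Cd3e, part of the T cell receptor complex, was at 1.65 and 0.764 against 0.812 and 0.809 CPM. Klrb1c, known as a receptor of natural killer cells, was at 10.9 and 7.35 against 2.17 and 3.34 CPM (edgeR adjusted p = 0.374, DESeq2 0.237). Its groups did not overlap, as for 23.8% of all genes tested in the lower direction. In segment 1, Klrb1c was far higher in controls, at 554 and 424 CPM against 8.75 and 12.3 CPM in L1. Which cells hold this transcript was not tested. Of 15 neutrophil and mast cell genes 1 was high enough to test. The lists of T and NK cells (10 genes tested, 2 higher at an unadjusted p under 0.05), B and plasma cells (6, 1 higher), cytokines and chemokines (13, 2 higher and 1 lower) and complement (14, 2 lower) gave no call by edgeR or DESeq2. Among 52 fibroblast, muscle, endothelial and blood genes none was called by edgeR, 7 were lower at an unadjusted p under 0.05 and DESeq2 called 1. The smooth muscle actin Acta2 was at 143 and 168 against 140 and 139 CPM.

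Ribosomal protein genes gave no call in 25 by edgeR or DESeq2, with 8 higher at an unadjusted p under 0.05 (6.43% over all genes), 19 higher with no overlap between groups (19.5% over all genes) and a median log2 fold change of 0.288.

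The 60 genes that rose were mostly moderately abundant, with a median of 32.5 CPM in C3. Taf15, an RNA-binding protein (chr11:83473086-83506743), was at 35.9 and 35.0 CPM in C3 and 62.5 and 69.3 CPM in L3 (log2 0.89 ± 0.09, edgeR adjusted p = 0.000929), and it alone of the named risers stood whichever library was left out. Snrnp70, a protein of the U1 splicing particle, was at 167 and 166 against 263 and 222 CPM.

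Hnrnpa0, which binds AU-rich RNA, was at 125 and 134 against 241 and 213 CPM, and Cirbp, a cold-inducible RNA-binding protein, at 110 and 108 against 171 and 155 CPM. Gar1, a component of the particles that modify ribosomal RNA, was at 10.3 and 13.3 against 22.1 and 27.1 CPM, the largest of these rises (log2 1.06 ± 0.14, edgeR adjusted p = 0.00606). Sox4, a transcription factor, was at 69.9 and 66.8 against 131 and 93.5 CPM. Dynll2, a dynein light chain, was at 168 and 221 against 269 and 383 CPM. Of these, none but Taf15 was called without the control of set 3017 (edgeR adjusted p from 0.0710 for Dynll2 to 0.347 for Hnrnpa0). Without the term for the set, 17 genes were called higher and 219 lower, so the count of rises rested on pairing the libraries by set.

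**Figure D4:**
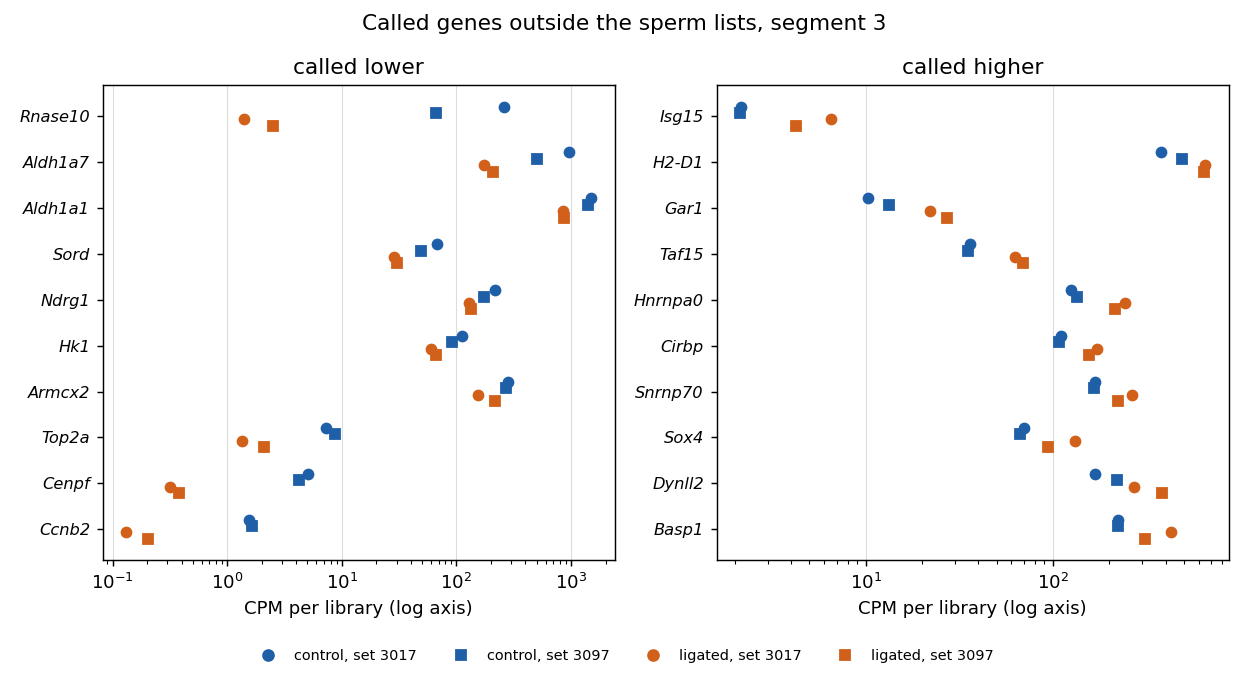
CPM of 10 genes called lower and 10 called higher outside the sperm lists, in each segment 3 library (log axes; circles, set 3017; squares, set 3097; blue, control; orange, ligated). The groups do not overlap for any of the 20 genes, as for all 331 called genes from which they were taken. Over all genes tested this was true of 19.5% in the higher and 23.8% in the lower direction. Rnase10 shows a large gap, and most rises are under 2-fold.

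Segment 3 shared its losses with segment 2. Of its 271 fallen genes, 264 (97.4%) were also called lower in segment 2, and these were 19.6% of the 1344 genes called lower there; the 2 comparisons share no library, though one fit. Of its 60 risers 15 were called higher in segment 2, as were 551 of all 19213 genes tested, and 57 of the 60 had the same sign there. The ligation effect did not differ between segments 3 and 2 for any gene by edgeR, although 1917 genes (9.98%) had an unadjusted p under 0.05 and DESeq2 called 157 of 14370 (1.09%). Between segments 3 and 1, it differed for 5907 genes (30.7%; DESeq2 31.1%). In segments 2 and 1 themselves, 9.86% and 48.7% of genes were called. Prm1, for example, had log2 fold changes of −8.53 in segment 3, −7.84 in segment 2 and −4.71 in segment 1, where the control held only 1.28 and 1.46 CPM. Odf1 was −7.88, −9.71 and −3.87.

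Several epithelial genes had their larger effect in segment 1. Rnase10 had a control level of 8717 and 9639 CPM in segment 1 against 259 and 66.5 CPM in segment 3, and log2 fold changes of −12.58, −9.54 and −6.11 in segments 1, 2 and 3 (segment 3 against 1, edgeR adjusted p = 0.0107). Etv4 was at −9.87, −2.50 and −2.12, and the difference between segments 3 and 1 was called (edgeR adjusted p = 0.0150). Clu rose by 5.14 on the log2 scale in segment 1 and was 0.45 in segment 3, a called difference of −4.69 ± 0.81 (edgeR adjusted p = 0.00629). Crisp1, a sperm-coating protein, fell by 6.27 in segment 1 and was 0.49 in segment 3 (edgeR adjusted p of the difference 0.00787).

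**Figure D5:**
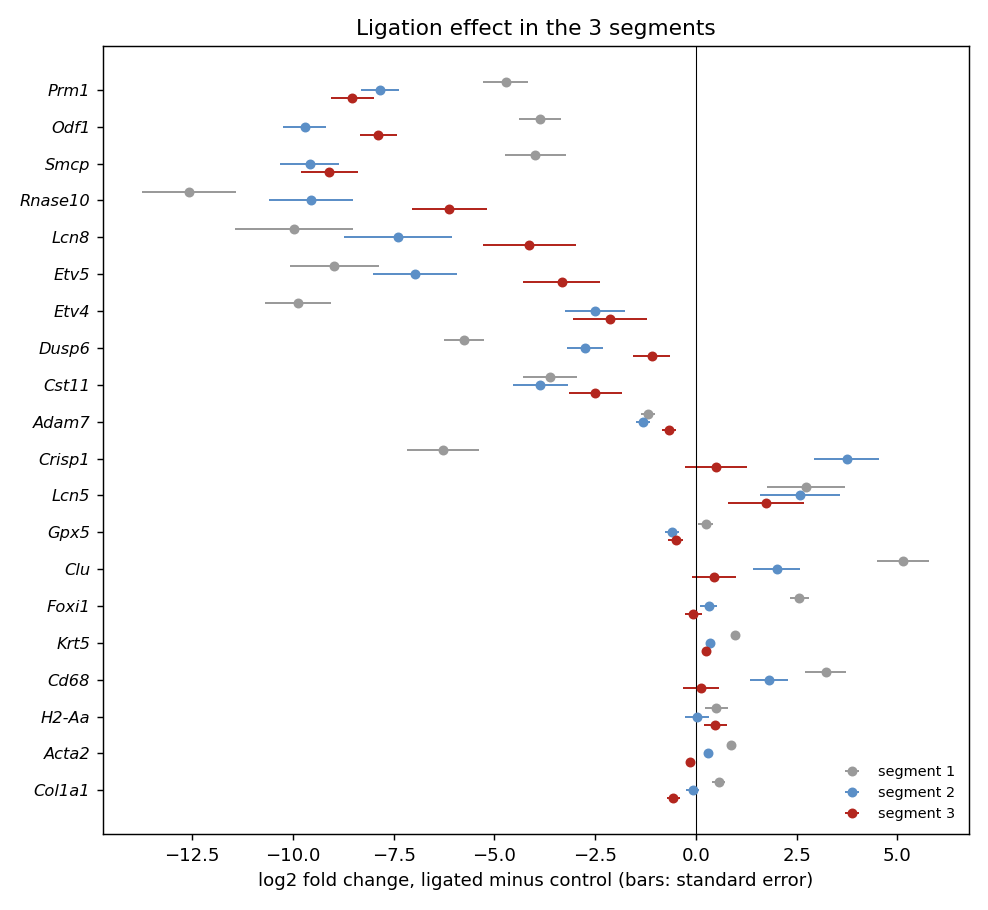
Log2 fold change (ligated minus control) with its standard error for 20 genes in segments 1 (grey), 2 (blue) and 3 (red). Sperm genes at the top are lowest in segments 2 and 3, initial segment and ERK genes other than Cst11 are lowest in segment 1, and in segment 3 the genes from Adam7 down, except Lcn5, lie within 1 of 0.

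Genes that set the control segments apart were read without a test, since how precisely the cuts matched is not recorded. Of 192 genes at least 4-fold higher in C1 than in C2, 5 were called lower in segment 3 and none higher, beside 1.41% lower over all genes, with summed levels of 1493 and 1871 CPM in C3 and 2509 and 1684 CPM in L3. Of 182 genes at least 4-fold higher in C2 than in C1, 21 were called lower and none higher, beside the same 1.41%; these 182 include 13 sperm-list genes. The part of cut position in the results was not tested.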

How the data were processed

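The deposited values were raw gene counts in 2 tables, one for each set of libraries. Per the submitters' processing notes, the authors used Trim Galore 0.6.0, cutadapt, FastQC and STAR 2.7.0e with GRCm38/mm10; no source used here names the counting tool, strand setting or annotation release. Columns were matched to groups by their names. Symbols and positions came from GENCODE M21 (GRCm38).

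All 12 libraries entered 1 edgeR 4.0.16 fit (R 4.3.3, group plus set, TMM scaling, filterByExpr with a minimum count of 10, robust quasi-likelihood), with p-values adjusted by Benjamini-Hochberg over the 19213 genes tested. The self-written steps were run on simulated counts that held large known changes in L3 and no differences between sets or other groups. That run checks the code, and it cannot show how well small changes are found in the real libraries. DESeq2 1.42.0 was an alternative, beside other scalings, filters, designs and subsets of libraries. The self-made CPM values use TMM library sizes; a gene at 0 allows up to 0.0786 CPM in L3 of set 3017 (3 counts), and counting intervals (95%) cover counting error only. Antisense and overlapping genes were not separated further.

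Named genes were the 12 largest folds and 10 largest CPM differences per direction among called genes of at least 5 CPM, up to 3 called members per list, and 27 fixed genes; others named in the text were chosen after their values were seen. The genes, the 35 lists and the comparison were chosen with earlier results of these data known. No column of per-sample values was left out. A few genes that the naming rule selects are not reported here.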

Additional observations from a re-analysis of the deposited data

Results flagged for a closer look

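For 17 of the 27 genes followed in every segment, the ligation effect in segment 3 differed from that in segment 1 by the interaction test of the common edgeR fit (adjusted p under 0.05), beside 30.7% of all genes tested; for none of the 27 did it differ from that in segment 2. Differences are given as segment 3 minus segment 1 on the log2 scale. Of the 5 sperm genes among the 27, 3 had a larger fall in segment 3, Smcp differing by −5.11, Odf1 by −4.01 and Prm1 by −3.81, and 2 gave no call, Akap4 (−1.40, adjusted p = 0.806) and Prm2 (−3.87, adjusted p = 0.0887). Their ligated levels were near 0 in both segments while control levels were lower in segment 1 (mean of Prm1 1.37 CPM in C1 and 11.0 CPM in C3). Initial segment and ERK genes were less lowered in segment 3. Rnase10 differed by 6.46, Lcn8 by 5.84, Etv5 by 5.64, Etv4 by 7.74, Dusp6 by 4.65 and Ros1 by 2.15. Control levels of these genes were higher in segment 1 (mean of Rnase10 9178 CPM in C1 and 163 CPM in C3). The ligated means of Rnase10 were 1.57 CPM in L1 and 1.96 CPM in L3. The secreted Crisp1 differed by 6.76 and Clu by −4.69, and the chloride channel Cftr by 2.33. Cell type markers that rose in segment 1 differed too: Foxi1 (clear and narrow cells) by −2.63, Krt5 (basal cells) by −0.73, Cd68 (macrophages) by −3.09, Col1a1 (fibroblasts) by −1.12 and Acta2 (smooth muscle) by −1.03. Adgre1, also a macrophage gene, gave no call (−0.067, adjusted p = 0.876) and had a log2 fold change of 0.097 in segment 1. Of 30 macrophage and dendritic cell genes, 3 had a called difference from segment 1. Median log2 fold changes of whole lists in segment 1 were 1.21 (clear and narrow cells), 0.0998 (basal cells) and 0.488 (macrophages and dendritic cells). They were 0.716 for fibroblasts and matrix and 0.606 for smooth muscle, beside 0.0341 over all genes tested.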

How the results depend on the processing

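Of 331 calls (271 lower, 60 higher; 43 sperm, 8 epithelial, 2 immune), leaving out 1 segment 3 library gave 70 to 395 calls, 65 to 304 lower, 3 to 91 higher, 22 to 41 sperm, 0 to 8 epithelial, 0 to 3 immune; the segment 3 minus 1 difference gave 3909 to 5006 genes (5907 with all), and segment 3 minus 2 gave 0. A lone library was assumed to vary like the other groups. DESeq2 gave 649 calls (464 lower, 185 higher, so 28.5% higher against 18.1%), 43 epithelial, 6 immune and 157 for segment 3 minus 2. Without a filter 4 immune genes and 1 gene for segment 3 minus 2 were called. Without robust estimation 13 epithelial and 1 immune gene were called, and without segment 1 there were 24 higher and 1 immune. With only the libraries compared there were 211 calls, 24 higher, 16 epithelial and 0 immune; 173 of the 331 calls stood, 7 of them among the 60 higher.

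Deviations of C3 and L3 between the sets, which would show pairing, correlated at 0.046 (other pairs of groups 0.048 to 0.66). Dropping the replicate block by set gave 236 calls, 219 lower, 17 higher (7.2%) and 0 immune; 41 sperm calls stood. Columns carry no replicate number, so no other pairing could be tried.

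Among 92 named genes, 49 called, the call was lost for 30 without C3 of set 3017, 30 without L3 of set 3017, 23 without L3 of set 3097 and 6 without C3 of set 3097. No called gene changed direction. Uncalled genes that did, with the range over single libraries left out, were Rhcg (−0.13 to 0.13, and 0.016 with library totals alone), Hbb-bs (−0.41 to 0.49), Crisp1 (−0.50 to 1.95), Ros1 (−0.098 to 0.22), Egfl7 (−0.16 to 0.26), Cd68 (−0.16 to 0.48), Foxi1 (−0.13 to 0.026) and Adgre1 (−0.072 to 0.14). Removal of ribosomal RNA genes, added after seeing the data, left 323 calls. The median standard error of 0.199 limits small changes: the smallest called change was 0.402 on the log2 scale.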
